A study of Mus musculus with 27 samples.

Results

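Chromatin accessibility was compared between cells given all 3 cardiac reprogramming factors, called GMT, and cells given dsRed, called the control. The comparison was made by taking the 3 GMT and the 3 control libraries by their labels, 6 of the 24 libraries that have a column of counts, across all 30815 regions of the table. Of these regions 20494 passed a filter on low counts and were tested, and 10321 did not. The assay was ATAC-seq, in which a transposase cuts open DNA and inserts sequencing adapters, so that a high count over a region means that its chromatin was accessible. Every group came from one line of neonatal heart fibroblasts of CD-1 mice that was immortalised with large T antigen and carries GFP under the alpha-MHC promoter, which is active in heart muscle cells. GMT cells received retroviruses for Gata4, Mef2c and Tbx5 and were kept in 2 chemicals, SB431542, which blocks TGF-beta signalling, and XAV939, which blocks Wnt signalling. The control cells received a retrovirus for dsRed, a red fluorescent protein, and neither inhibitor, so that the factors and the inhibitors cannot be told apart in any difference between GMT and the control. The cells were harvested unsorted at day 2, so that any cells which took up fewer than all of the retroviruses were not removed. In such bulk samples, fewer cells with an open region and less opening per cell cannot be told apart. A further 6 groups, 3 pairs of factors (GM, GT, MT) and the single factors (G, M, T), had 3 libraries each and both inhibitors, and serve here for levels and for a second comparison. A further 3 samples of dsRed cells with the inhibitors were not analysed here.

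Gata4 is a zinc-finger protein that binds the sequence GATA and can bind DNA that is wrapped in nucleosomes. Mef2c is a MADS-box protein that binds AT-rich sites at muscle genes, and Tbx5 is a T-box protein needed for the growth of the atria and the left ventricle. Given together to fibroblasts, they turn a fraction of the cells towards a state like that of heart muscle, a change that takes weeks, so that day 2 is early. Regions are named by their coordinates in the mouse build mm9. Neither a genome nor an annotation of genes in that build was at hand, so that no gene name, sequence or motif is given for any region and the cell type was not checked against its marker genes.

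Total counts were 241394, 817519 and 1059307 in GMT replicates 1, 2 and 3, and 457816, 801501 and 1204778 in control replicates 1, 2 and 3. Levels are given as CPM, counts relative to the library total after scaling by the trimmed mean of M-values (TMM), and are not divided by region width. On this scale 1 count was worth 4.01 CPM in GMT replicate 1 and 1.29 and 0.991 CPM in GMT replicates 2 and 3, against 2.23, 1.30 and 0.946 CPM in the control libraries. GMT replicate 1 stood apart from its group: its Spearman correlation across the regions tested was 0.688 and 0.726 with GMT replicates 2 and 3, which had 0.922 with each other. Its mean correlation was 0.707 with the other GMT libraries, 0.772 with MT and 0.75 with the control. The control libraries had 0.892 to 0.944 among themselves. No sequence of the retroviruses was measured, so that the uptake of the factors could not be checked in any library. The replicates are labelled as biological, with nothing on how they were separated. Each p-value rests on the spread of libraries within all 8 groups fitted together, with 16 residual degrees of freedom, and not on the GMT and control libraries alone.

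The accessible landscape differed between GMT and control cells at 33.5% of the regions tested, 6869 of 20494, by edgeR's quasi-likelihood test at an adjusted p below 0.05. Of these, 4718 (23.0%) were higher in GMT and are called opened, and 2151 (10.5%) were lower in GMT and are called closed. These names stand for a direction of counts and for no more. Under TMM, opened regions had larger changes than closed ones. The interquartile range of their log2 fold changes was 1.73 to 2.75 for the opened regions, with a median of 2.20 and a highest value of 5.82. For the closed regions it was -2.01 to -1.001, with a median of -1.49 and a lowest value of -4.16. A log2 fold change beyond 3 in size, in either direction, was reached by 838 opened regions (17.8% of them) and 64 closed regions (2.98%). The lists also differed in level, with medians of 7.17 CPM (opened) and 63.8 CPM (closed) in the control and 32.7 and 22.2 CPM in GMT. The part of level in the size of the changes was not tested, and these medians of fold change were not taken under other scalings. In 3670 of the opened regions (77.8%) every GMT library was above every control library, an arrangement that 23.7% of all regions tested showed. In 1948 of the closed regions (90.6%) every GMT library was below every control library, as in 17.6% of all regions tested.

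The share of called regions that were higher in GMT was 68.7% and depended on how the libraries were scaled. It was 65.6% with RLE size factors, 73.2% with total counts alone and 53.5% (3102 opened and 2695 closed) with loess offsets, which are fitted to the level of each region. The median log2 fold change of all regions was 0.09 under TMM and -0.03 under the loess offsets. No region that was opened under TMM was closed under the loess offsets, or the reverse. Single libraries also moved the counts. Without GMT replicate 1 there were 4921 opened and 3245 closed regions. Opened and closed regions numbered 2959 and 1038 without GMT replicate 2, 3234 and 889 without GMT replicate 3, and 2957 and 1218 without control replicate 3.

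The 10 regions that ranked highest by log2 fold change had almost no counts in the control, at 0 to 15.6 CPM per library, against 8.03 to 409 CPM in GMT libraries. They were ranked among called regions whose GMT and control libraries did not overlap and whose mean level was not below the median of all regions tested. Their log2 fold changes ran from 4.64 to 5.82 (edgeR adjusted p from 2.7e-06 to 0.000129), and no call was lost in any of 20 alternative analyses that tested the region. Of the 10, chr5:148661608-148662200, was not tested with only the groups compared, and the others were tested in all 20. Most were wide, with a median width of 507 bases against 261 bases over all regions tested.

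**Figure D1:**
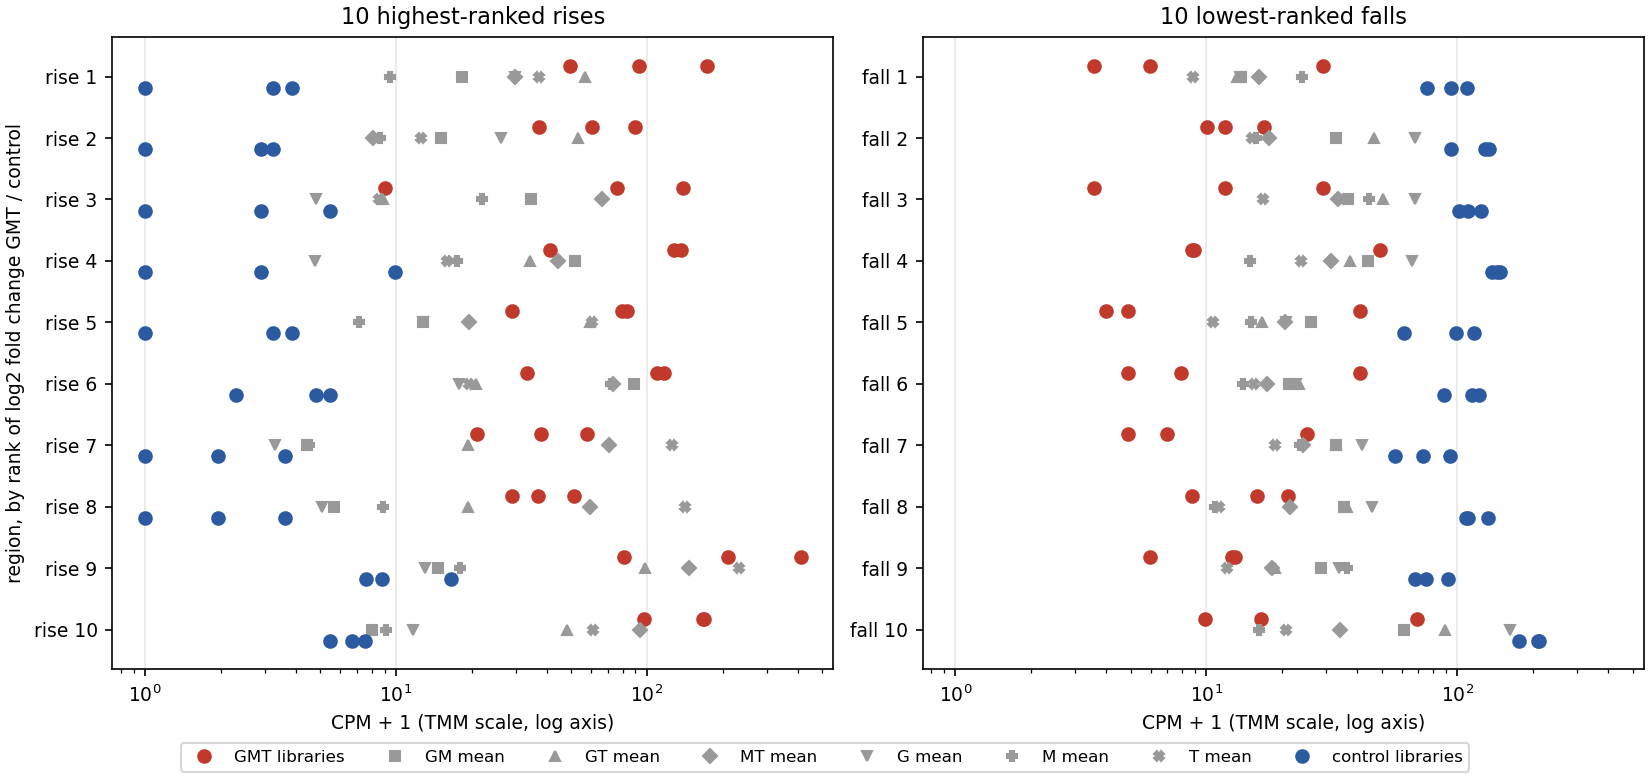
Levels of the 10 highest-ranked rises (left) and the 10 lowest-ranked falls (right), as CPM plus 1 on a log axis, with a point for each GMT library (red) and control library (blue) and a grey symbol for the mean of each other group. At all 20 regions the GMT libraries lie on one side of the control libraries, and the GMT library nearest to the control at each is replicate 1.

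At chr15:80081059-80081398, the first-ranked rise, GMT replicates 1, 2 and 3 had 48.2, 173 and 92.2 CPM, and control replicates 1, 2 and 3 had 2.23, 0 and 2.84 CPM. Its log2 fold change was 5.82 ± 0.74 (SE, edgeR adjusted p = 3.32e-06). GT came nearest to GMT there, at a mean of 55.6 CPM (22.8, 112 and 32.2 CPM in replicates 1, 2 and 3). M was the lowest of the factor groups, at 8.47 CPM. The second, chr3:131573581-131573937, had 36.1, 59.3 and 88.2 CPM in the GMT libraries and 2.23, 0 and 1.89 CPM in the control libraries. Here GT averaged 52.1 CPM (19.0, 96.0 and 41.4 CPM per library) and G 25.2 CPM, while MT (7.07 CPM), M (7.62 CPM) and T (11.6 CPM) were lower. The 3 control libraries held 3 counts in all at this region and the 3 GMT libraries 144, a ratio of pooled levels of 53.7 with an exact 95% interval from 18 to 263, which covers counting error only.

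A different group stood next to GMT at chr5:148661608-148662200, where GMT had 8.03, 74.8 and 138.8 CPM and the control 4.45, 0 and 1.89 CPM. MT had 64.95 CPM, GM 33.6 CPM and M 21.02 CPM, whereas GT, T and G had 7.90, 7.55 and 3.81 CPM. The groups with Mef2c were thus the higher ones at this region. At chr3:52890609-52891176, GMT had 32.1, 108 and 116 CPM, while GM (88.0 CPM), MT (72.2 CPM) and M (70.8 CPM) were near its mean of 85.5 CPM. The groups without Mef2c lay at 16.8 to 19.9 CPM and the control at 3.18 CPM.

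T had a higher mean than GMT at another pair of the 10, a difference that was not tested. At chr18:10909009-10909251, GMT had 20.1, 56.8 and 36.7 CPM, T averaged 125 CPM, MT 69.6 CPM and the control 1.18 CPM. At chr8:36495421-36495624, GMT had 28.1, 50.3 and 35.7 CPM, T averaged 141 CPM, MT 58.4 CPM and the control 1.18 CPM. G, M and GM had 2.28 to 3.50 CPM at the first and 4.06 to 7.89 CPM at the second. With the control at 3 counts in all at either region, the ratios of pooled levels between GMT and the control were 32.1 (exact 95% interval 10.6 to 158.5) and 30.6 (10.1 to 151). At chr5:124588947-124589509, GMT averaged 233 ± 165.5 CPM (SD, n = 3) and T 232 CPM, against 10.0 ± 4.87 CPM in the control.

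At chr18:46786694-46787174, rank 10, every GMT library was above the mean of each other group. GMT had 96.3, 166 and 167.5 CPM, MT averaged 92.7 CPM, T 60.2 CPM and GT 47.0 CPM. GM, M and G had 7.05, 8.16 and 10.7 CPM, close to the 4.45, 6.51 and 5.68 CPM of the control libraries. The log2 fold change against the control was 4.64 ± 0.61 (edgeR adjusted p = 4.49e-06).

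Few opened regions were empty in the control. Of the 4718, 111 (2.35%) had at most 3 counts over the 3 control libraries together, a floor of 1.32 CPM, compared with 143 (0.698%) of all regions tested. No control count at all was found at 3 opened regions. They held 9 or 10 counts over the GMT libraries. Set against the floor of 3 counts over the control group, the ratios of pooled levels were 3.36 to 3.73, with counting error in GMT left out. More often an opened region had some counts in the control. The median over opened regions was 32.7 CPM in GMT and 7.17 CPM in the control, with an interquartile range of 21.9 to 53.1 CPM in GMT and 4.48 to 12.3 CPM in the control. Closed regions likewise kept counts in GMT, with a median of 22.2 CPM in GMT and 63.8 CPM in the control, and only 7 of 2151 had at most 3 counts over the GMT libraries.

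The 10 falls that ranked lowest were regions well open in the control, at 55.7 to 211 CPM per library, and at 2.58 to 68.2 CPM in the GMT libraries. They were narrow, with a median width of 226.5 bases, and their log2 fold changes ran from -3.49 to -3.10 (edgeR adjusted p from 8.25e-05 to 0.00336). GMT replicate 1 was the highest GMT library at all 10. Without it the 10 log2 fold changes ran from -4.78 to -3.36.

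At chr15:51593566-51593783, the first of them, GMT replicates 1, 2 and 3 had 28.1, 2.58 and 4.96 CPM, and control replicates 1, 2 and 3 had 93.5, 108 and 74.7 CPM. The log2 fold change was -3.49 ± 0.62 (edgeR adjusted p = 0.000116). All 6 other factor groups were low there too, where T, at 7.84 CPM, was the lowest and M, at 23.0 CPM, the highest. The same was seen at chr19:12837103-12837337, with 40.1, 3.87 and 6.94 CPM in GMT, 13.0 to 22.3 CPM in the 6 other factor groups, and 114, 121 and 88.0 CPM in the control. At chr7:109918395-109918717 GMT had 40.1, 3.87 and 2.97 CPM, the other factor groups 9.66 to 25.2 CPM and the control 116, 97.7 and 60.5 CPM. At these 3 regions the means of all 7 factor groups, all of which had the inhibitors, lay between 7.84 and 25.2 CPM, below every control library. The falls were ranked on the control levels, so this order is a description. The call at the last of them was lost without replicate 2 of all groups (edgeR adjusted p = 0.064) and without replicate 3 of all groups (0.0955).

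At other falls the levels of the factor groups differed more from each other. At those given here, too, the mean of each factor group was below every control library, which is again a description. At chr5:72641179-72641570, GMT had 68.2, 15.5 and 8.92 CPM, and MT (33.0 CPM), M (15.3 CPM) and T (19.7 CPM) were low as well. G averaged 162 CPM there and the control 199 ± 19.9 CPM (SD, n = 3). At chr6:122639898-122640102, GMT had 20.1, 7.74 and 14.9 CPM, MT 20.5 CPM, M 9.83 CPM and T 10.2 CPM, whereas G had 44.9 CPM and the control 109, 132 and 107 CPM. At chr9:34087253-34087453 the levels of the single factors spread widely. GMT had 28.1, 2.58 and 10.9 CPM, G averaged 66.65 CPM, M 43.7 CPM and T 15.9 CPM, and the control had 109, 124 and 100.3 CPM. The call at chr18:15148797-15148997, where GMT averaged 21.3 CPM and the control 142 CPM, was lost without replicate 3 of all groups (edgeR adjusted p = 0.0775).

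Ranked by the difference in mean CPM instead of by fold, the 5 largest rises lay in wide regions of 577 to 1009 bases. At chr15:68243764-68244614, GMT had 120.4, 405 and 544 CPM and the control 13.4, 20.8 and 13.2 CPM (log2 fold change 4.51 ± 0.59, edgeR adjusted p = 4.27e-06). MT and T had 259 and 169.6 CPM there, GT 131 CPM, and GM, G and M 25.8, 17.9 and 14.1 CPM. The means of the groups with Tbx5 were thus the higher ones. The GT libraries differed, at 25.3, 253 and 115 CPM in replicates 1, 2 and 3, so that GT replicate 1 was near the means of the groups without Tbx5. At chr5:135105104-135105782, GMT had 185, 587 and 340.0 CPM and the control 22.3, 53.4 and 31.2 CPM. GT averaged 284 CPM there (115, 519 and 218 CPM per library), and M, at 49.2 CPM, was the lowest factor group. At chr8:35160316-35161324 GMT had 341, 618 and 417 CPM, and the control, at 118, 129 and 142 CPM, was itself well above the median region. G and GT averaged 470.5 and 534 CPM at that region, and M 60.55 CPM. The other 2 were chr15:25849415-25850099 and chr13:91025549-91026125, at 347 and 333 CPM in GMT and 28.9 and 38.05 CPM in the control. All 5 calls were kept under each of the 20 alternatives.

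The 5 largest falls in mean CPM were small in fold and had high levels in both groups. GMT had 148 to 763 CPM per library and the control 587.5 to 1218 CPM, and the log2 fold changes ran from -1.17 to -0.64 (edgeR adjusted p from 0.00177 to 0.0443). A pair of them on chromosome X, chrX:166428989-166429207 and chrX:166434920-166435175, had 763, 346 and 347 CPM and 554, 251.5 and 205 CPM in GMT, against 813, 954 and 1200.0 CPM and 644, 706 and 845.5 CPM in the control. At each of the pair GMT replicate 1 was the highest GMT library. None of the 5 was called with the loess offsets, where their log2 fold changes ran from -0.69 to -0.02, with a minimum fold of 1.5 or without replicate 3 of all groups. Of the 5 calls, 4 were lost without GMT replicate 2, 3 without GMT replicate 3 and 3 without control replicate 3. The pair on chromosome X lost its calls in 11 and 12 of 20 alternatives. The other 3 were chr6:56664806-56665237, chr6:108015217-108015477 and chr3:30993433-30994124.

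As steady regions, the 3 most accessible of those that were not called and were within 0.1 on the log2 scale were taken. At chr8:4166019-4166413 GMT had 1108, 785 and 931 CPM and the control 895, 1019 and 997 CPM (log2 fold change -0.05 ± 0.17). At chr14:120876635-120877050 GMT averaged 595 CPM and the control 627 CPM, and at chr3:142545075-142545531 they averaged 459 and 430 CPM. With the loess offsets all 3 were called higher in GMT, by 0.46 to 0.67 on the log2 scale. The calls at these 8 regions of high level thus differed between TMM and the loess offsets, whereas the 10 highest-ranked rises and the 10 lowest-ranked falls were called under both.

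Opened regions were wider than closed ones. Their median width was 317.5 bases, against 233 bases for closed regions and 249 bases for regions not called. Among regions over 500 bases, 42.8% (579 of 1352) were higher in GMT and 5.1% were lower. Among regions up to 250 bases, 14.4% (1363 of 9488) were higher and 13.0% were lower, beside 23.0% and 10.5% over all regions tested. Wide regions also had more counts, so the shares were taken within 4 classes of mean level, of equal size and numbered from the lowest. In class 4, 30.7% of regions over 500 bases and 1.89% of regions up to 250 bases were higher in GMT, and 7.57% and 20.1% were lower. In class 2 the shares that were higher were 58.8% and 20.8%, and the shares that were lower 1.88% and 12.3%. The difference was smallest in class 1, at 26.7% and 16.7% higher. The order of the width classes held with the loess offsets, at 40.2% higher among regions over 500 bases and 6.81% among regions up to 250 bases, and without GMT replicate 1, at 42.3% and 13.8%. The shares higher were 32.9% and 7.25% without GMT replicate 2 and 35.1% and 7.95% without GMT replicate 3, so that the order held while the levels fell. For regions up to 250 bases the share lower was 17.7% without GMT replicate 1, 5.93% without GMT replicate 2, 4.99% without GMT replicate 3 and 18.3% with the loess offsets.

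**Figure D2:**
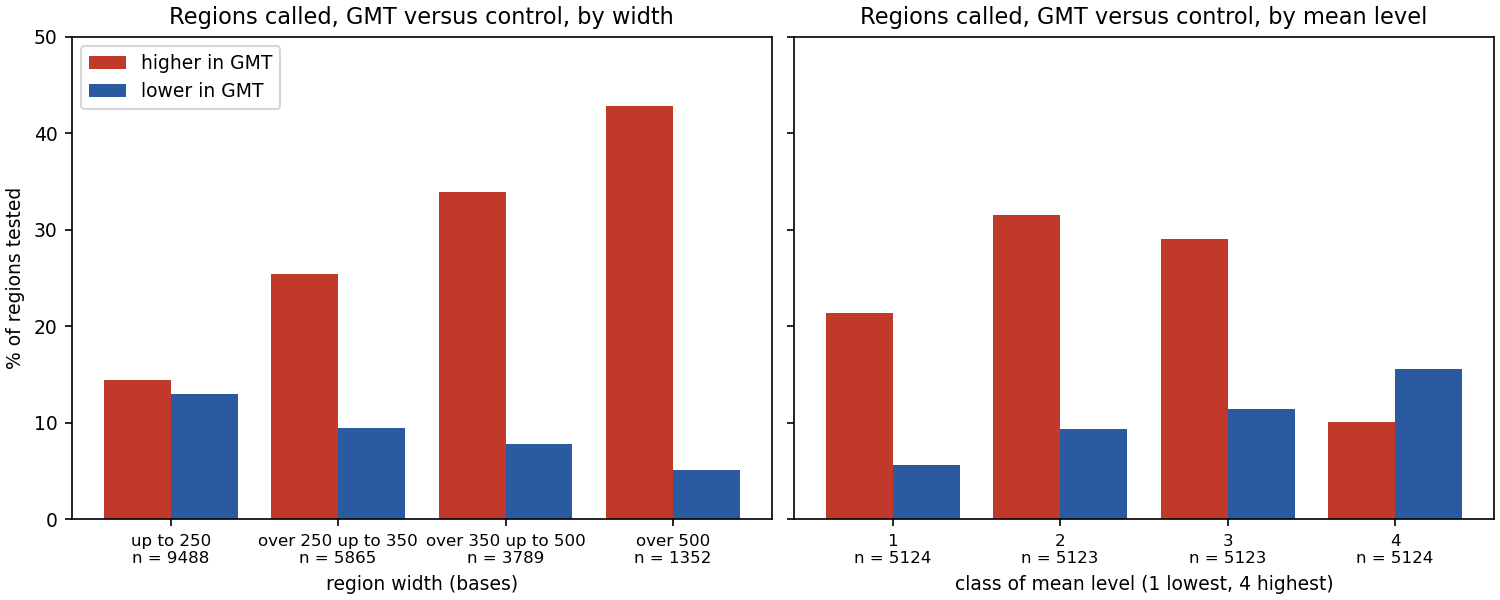
Percentage of the regions tested that were called higher (red) or lower (blue) in GMT than in the control, by region width in bases (left) and by class of mean log2 CPM (right, 4 classes of equal size), with the number of regions tested under each pair of bars. The share that was higher grew from 14.4% to 42.8% across the width classes while the share that was lower shrank from 13.0% to 5.1%, and under TMM falls outnumbered rises only in the highest class of level, where rises outnumbered falls with the loess offsets (12% and 6.28%).

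By mean level, the share of regions higher in GMT was 21.4%, 31.5%, 29.1% and 10.1% in classes 1 to 4. The share that was lower was 5.66%, 9.33%, 11.4% and 15.6%. This pattern turned with the loess offsets, where 8.88% of class 1 and 12% of class 4 were higher and 13.3% of class 1 and 6.28% of class 4 were lower. In class 4, the shares higher and lower were 8.14% and 5.82% without GMT replicate 3, 7.92% and 5.54% without control replicate 3, and 6.69% and 7.01% without GMT replicate 2. Chromosomes differed little in the share that was higher, from 20.2% on chromosome 17 to 26.7% on chromosome 18, with 21.1% on chromosome X. The share that was lower ran from 7.18% on chromosome 4 to 12.7% on chromosome 6.

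Called regions that lay close together mostly moved the same way. Of 812 pairs of consecutive regions at most 10000 bases apart that were both called, 600 were both opened, 72 both closed and 140 opposite, so that 82.8% had the same direction. Of the 1862 called pairs over 10000 bases apart, 61.1% had the same direction. No least gap was set, and some close pairs nearly adjoined, such as chr4:59327829-59328125 and chr4:59328134-59328334. Whether such neighbours share the same sequenced fragments was not tested. After an opened region, the next region within 10000 bases was also opened in 47.8% of 1254 cases, beside 25.6% of 3463 cases at larger distances. After a closed region the next was also closed in 19.6% of 367 cases within 10000 bases and in 14.1% of 1779 cases beyond. The number of same-direction pairs was 672, against 290 without GMT replicate 2, 364 without GMT replicate 3, 445 without control replicate 2 and 321 without control replicate 3, while their share ran from 80.8% to 88.8% with each GMT or control library left out in turn.

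Neighbours at most 10000 bases apart formed 3385 runs of 2 to 11 regions. At least 3 opened regions were found in 102 runs, 96 of them with no closed region, and at least 3 closed regions in 3 runs. Over all regions tested 23.0% were opened and 10.5% closed. The runs with at least 3 regions tested were not counted, so nothing is read from these numbers of runs. The run with most opened regions, chr7:56080135-56104077, had 7 opened of 8 tested over 23943 bases. Its largest change was at chr7:56080569-56080929, where GMT had 16.1, 91.6 and 87.2 CPM and the control 4.45, 1.30 and 5.68 CPM (log2 fold change 4.09 ± 0.69, edgeR adjusted p = 6.54e-05). Within this run the other groups did not move as one. At that region the means of GT (46.4 CPM, with 20.2, 91.4 and 27.6 CPM per library) and T (25.6 CPM) stood nearest to GMT. At chr7:56103774-56104077 those of GM (39.5 CPM), MT (36.6 CPM) and M (18.9 CPM) did, beside 37.8 CPM in GMT, 2.46 CPM in T and 9.88 CPM in the control.

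The next run, chr8:36479804-36497141, had 6 opened of 7, among them chr8:36495421-36495624 described above. In it, chr8:36479804-36480039 had 88.05 CPM in GMT and 14.0 CPM in the control, with GM at 78.9 CPM and G at 72.5 CPM, while chr8:36496535-36497141 had 151 CPM in GMT, 263 CPM in T and 38.2 CPM in the control. The third, chr8:107126665-107137304, also had 6 opened of 7. At chr8:107134187-107134466 GMT had 24.1, 165 and 149.7 CPM and the control 11.1, 10.4 and 8.51 CPM, and the other groups were led by MT, at 92.2 CPM, and GT, at 35.1 CPM. Its outermost region, chr8:107126665-107126944, had 127 CPM in GMT and 111 CPM in the control and was not called. Of the 19 calls in these 3 runs, 10 were lost in at least 1 alternative.

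**Figure D3:**
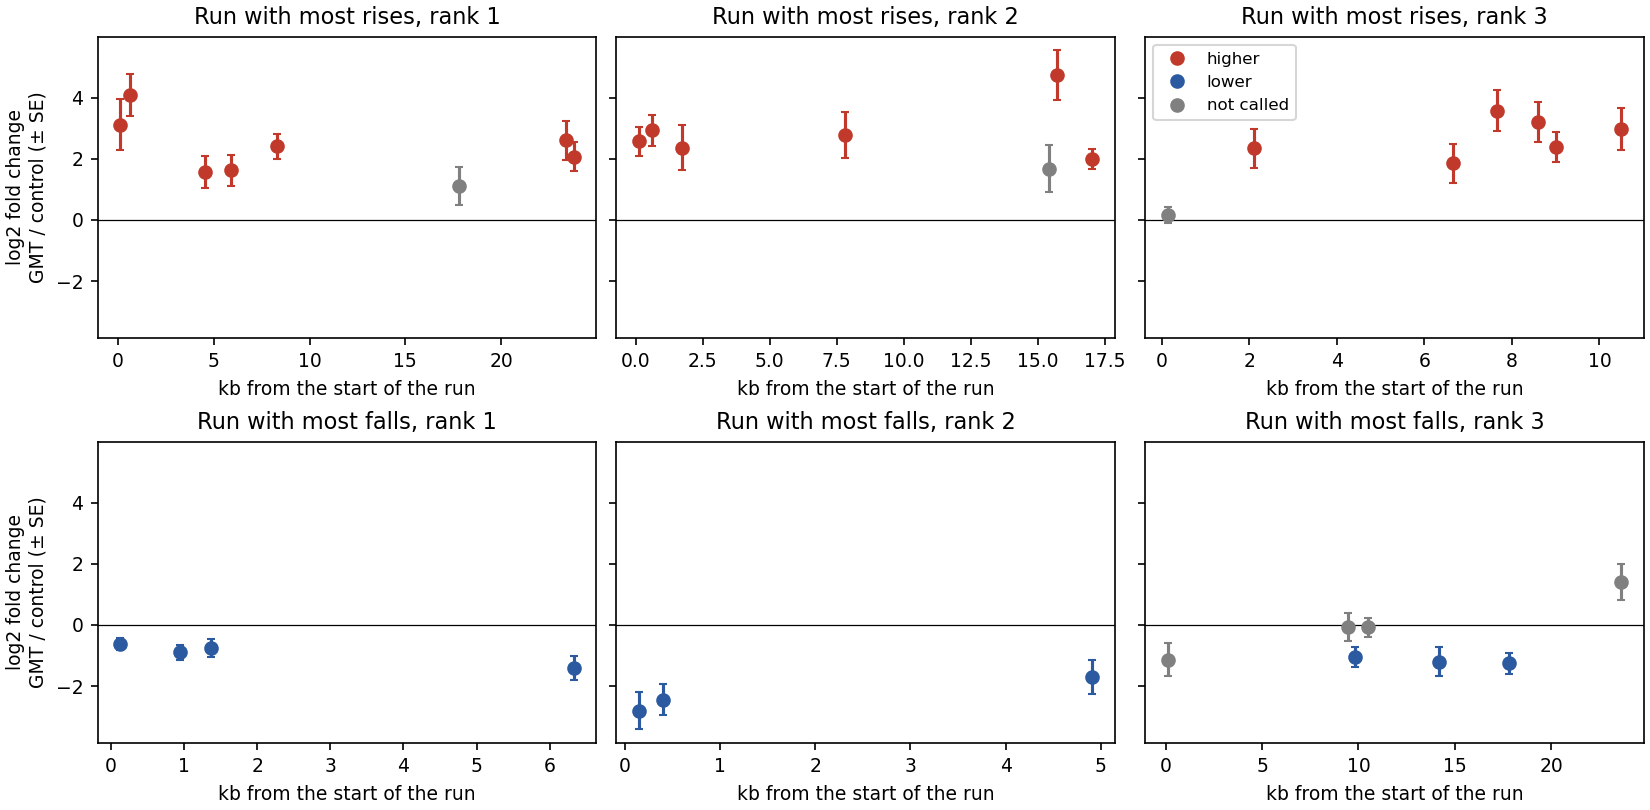
Log2 fold change of GMT over the control (± SE) for each tested region in the 3 runs of neighbouring regions with most rises (top) and the 3 with most falls (bottom), against the distance in kb from the start of the run. The runs of rises hold 6 or 7 called regions each, with log2 fold changes up to 4.73, and the runs of falls 3 or 4, with changes between -2.81 and -0.63 among those called.

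The 3 runs with most closed regions held fewer called regions, beside 10.5% closed and 23.0% opened over all regions tested. At chr6:108609366-108615819 all 4 regions tested were lower in GMT, with log2 fold changes of -1.41 to -0.63, and each of these calls was lost in at least 2 alternatives. At chr4:59327829-59332851 all 3 were lower, although 2 of these nearly adjoin. There chr4:59327829-59328125 had 8.03, 2.58 and 5.95 CPM in GMT and 28.95, 43.0 and 35.0 CPM in the control (log2 fold change -2.81 ± 0.60, edgeR adjusted p = 0.000759), and 8.84 to 12.4 CPM in the 6 other factor groups. The calls at the other 2 regions of this run were lost in 1 and 5 alternatives. At chr2:104956806-104980598, 3 of 7 were lower and none was higher, and each of the 3 calls was lost in at least 2 alternatives. In that run chr2:104980284-104980598 (log2 fold change 1.42) was called higher in 4 alternatives.

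Opened and closed regions were then followed through all 8 groups. The lists were chosen on the GMT and control libraries, whose values are therefore a description. So is the place of the other groups relative to them. The other 18 libraries entered through the shared estimate of the spread, the filter and the mean level. With only the groups compared, 15550 regions were tested, 3991 of them opened and 2474 closed. The median level of the opened regions was 20.1, 40.0 and 37.7 CPM in GMT replicates 1, 2 and 3 and 8.91, 6.51 and 5.68 CPM in the control replicates. The mean over libraries was 24.4 ± 4.79 CPM for MT, 18.6 ± 7.37 CPM for GT and 13.9 ± 1.38 CPM for GM (SD, n = 3 each). Of the single factors, T had a mean of 19.5 ± 3.45 CPM, M of 10.8 ± 0.711 CPM and G of 9.92 ± 1.27 CPM. The libraries of MT and T lay above all libraries of G and M. The library labelled GT replicate 1 was low, at 11.4 CPM, beside 26.1 and 18.4 CPM in GT replicates 2 and 3.

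**Figure D4:**
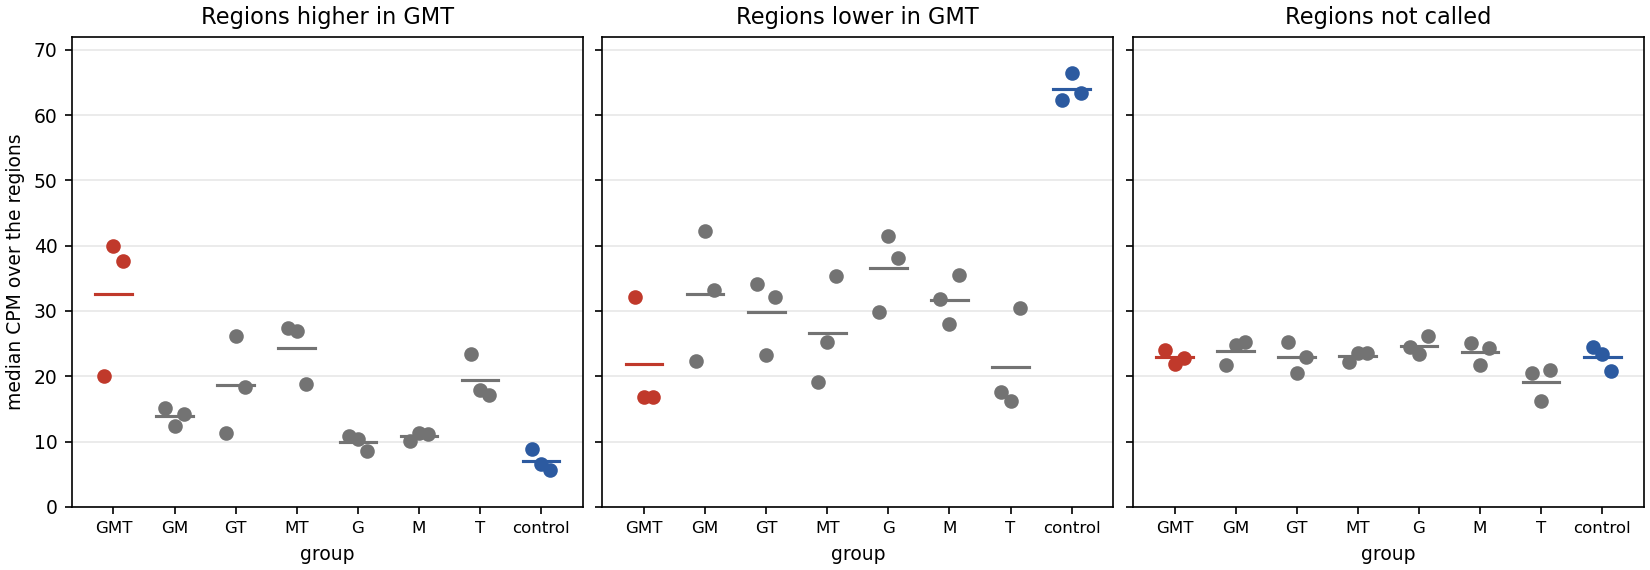
Median CPM of the regions higher in GMT (left), lower in GMT (middle) and not called (right) in each library (points) with the mean of each group (line), for 8 groups of 3 libraries. The opened list is highest in GMT replicates 2 and 3 and next in MT. The closed list is lower in all 7 factor groups than in the control, where it is above 62 CPM. The list that was not called stays between 16.1 and 26.1 CPM. The lists were chosen on the GMT and control libraries.

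For the closed regions the median was 32.1, 16.8 and 16.9 CPM in the GMT libraries and 62.4, 66.4 and 63.4 CPM in the control libraries. Among the other factor groups the libraries ran from 16.1 CPM in T replicate 2 to 42.2 CPM in GM replicate 2. Each of these 18 libraries was thus below the 3 control libraries, a description, since the list was chosen for high control levels. Of all counts over the regions tested, opened regions took 14.6%, 26.0% and 24.2% in GMT and 6.18%, 5.38% and 4.29% in the control. Closed regions took 16.3%, 9.84% and 11.3% in GMT and 23.2%, 23.8% and 24% in the control.

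The size of the change in each GMT library was measured in regions called without it, as far as these were among the 20494 regions tested with all libraries. Those called without GMT replicate 1 had, in that library, a median of 16.1 CPM where they were opened, beside 38.8 CPM for the mean of GMT replicates 2 and 3 and 7.14 CPM for the mean of the control (4719 regions). Where they were closed, its median was 36.1 CPM, beside 17.3 CPM in the other GMT libraries and 59.5 CPM in the control (3166 regions). It was above all 3 control libraries in 73.2% of the opened and below them in 71.5% of the closed regions. For GMT replicate 2 these shares were 98.7% and 94.6%, and for GMT replicate 3 they were 99.8% and 97.5%. The medians of GMT replicate 1 thus lay between those of the control and of the other GMT libraries, and this library also had the lowest total count. The part of its depth in this was not tested. The control libraries were used both to choose these regions and to measure them. Any library left out would therefore tend to lie on the GMT side of them, and the same shares over all regions tested were not taken.

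**Figure D5:**
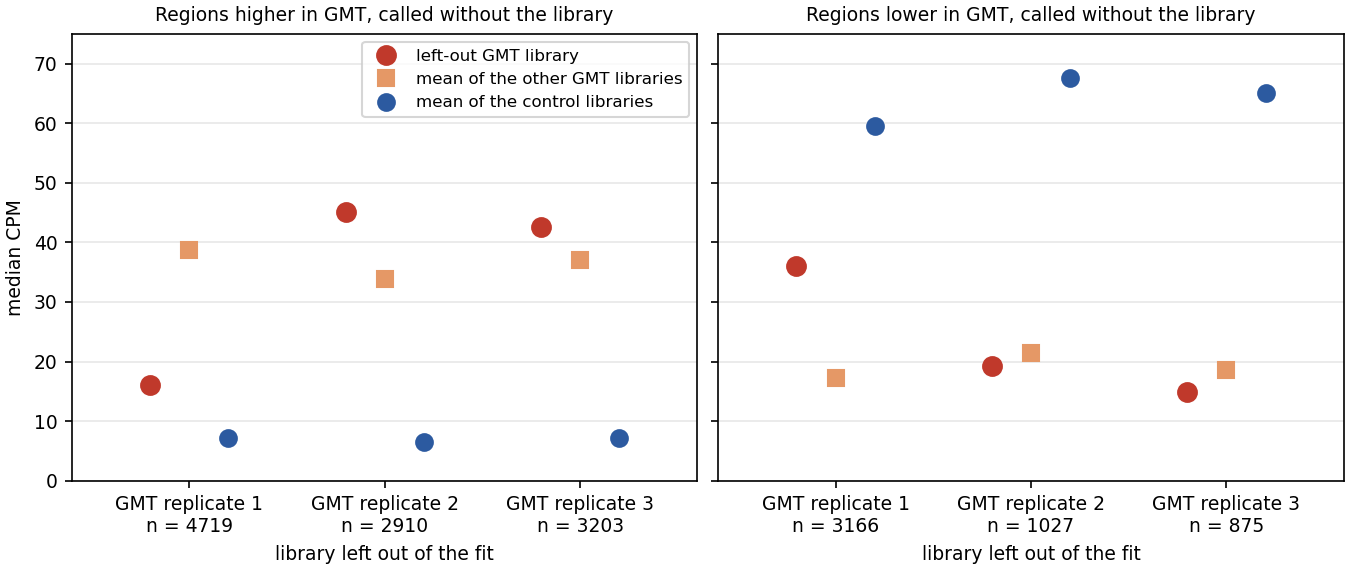
Median CPM in each GMT library (red circle) over the regions called higher (left) or lower (right) in GMT by a fit that left the library out, with the mean of the other GMT libraries (orange square) and of the control libraries (blue circle). GMT replicates 2 and 3 lie near or beyond the orange squares, at 45.1 and 42.6 CPM on the left, and GMT replicate 1 lies between the square and the control, at 16.1 CPM on the left.

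GMT was last set against the average of the log2 levels of G, M and T, among cells that all had the inhibitors. The control is no part of this difference, but its libraries entered the fit through the filter, the scaling and the estimate of the spread. With only GMT, G, M and T fitted, 17702 regions were tested, 3355 of them called higher in GMT and 320 lower. The comparison asks where the combination differed from that average, so a region can be called although a single factor was at or above GMT there. It shares the GMT libraries with the first comparison. By edgeR's quasi-likelihood test 4097 regions (20.0%) were called, 3567 higher in GMT (17.4%) and 530 lower (2.59%), with median log2 fold changes of 1.55 and -0.76. The share that was higher was 87.1%, against 78.0% with RLE size factors, 76.5% with the loess offsets and 74.8% with DESeq2, and the median log2 fold change of all regions was 0.13 under TMM and -0.06 under the loess offsets. There were 1291 higher and 89 lower without GMT replicate 2, and 1710 higher and 108 lower without GMT replicate 3. The number lower was 844 without G replicate 2 and 1006 without T replicate 1.

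Of the 20494 regions tested, 3057 were called higher in GMT than both the control and this average. Higher than the control were 4718 and higher than the average 3567. Both calls rest on the same GMT libraries and the same fit, so nothing is read from this overlap. Of the 3057, 152 also had every GMT library above all 9 single-factor libraries, at a mean level not below the median. Of all regions tested, 2.4% had every GMT library above all 9 and 1.74% had every GMT library below them. The 5 with the largest log2 fold change over the single factors ran from 3.03 to 3.56, and the calls against the single factors were kept in all alternatives. Against the control 1 of the 5 calls was lost, that at chr14:50410239-50410537 without replicate 3 of all groups (edgeR adjusted p = 0.06). At chr12:21174139-21174561 GMT had 48.2, 128 and 101 CPM, and the 9 single-factor libraries had 3.34 CPM at the lowest, 9.06 CPM at the median and 19.0 CPM at the highest (log2 fold change 3.40 ± 0.40, edgeR adjusted p = 7.38e-07). MT averaged 56.7 CPM there, GT 27.7 CPM, GM 10.4 CPM and the control 4.91 CPM.

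At chr14:50410239-50410537 GMT had 60.2, 45.1 and 89.2 CPM, the single-factor libraries 1.41 to 15.5 CPM with a median of 7.60 CPM (log2 fold change 3.13 ± 0.41, edgeR adjusted p = 3.28e-06). MT had 90.5 CPM, while GM, GT and the control had 10.4, 7.23 and 9.53 CPM. At chr7:56818896-56819118 MT again matched GMT, at 78.1 CPM beside 78.9 CPM, where the pairs with Gata4 had 5.55 CPM in GM and 22.8 CPM in GT. At chr6:59224024-59224564 GMT had 96.3, 131.5 and 238 CPM, MT 83.4 CPM, GM 70.1 CPM and GT 25.8 CPM, with single-factor libraries from 2.93 to 66.9 CPM. The remaining region was chr12:33285452-33285984, at 101 CPM in GMT and 0.706 to 20.0 CPM in the single-factor libraries.

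Of the 20494 regions tested, 283 were called lower in GMT than both the control and the average of the single factors. Lower than the control were 2151 and lower than the average 530. Of the 283, 105 met the same conditions in the other direction. The first, chr15:76867479-76867679, had 8.03, 11.6 and 9.91 CPM in GMT and 14.7 to 79.1 CPM in the single-factor libraries, with a median of 40.8 CPM (log2 fold change -2.16 ± 0.38, edgeR adjusted p = 0.000163). The pairs had 26.2 to 38.9 CPM there and the control 86.9, 76.9 and 89.9 CPM, so that the GMT libraries, which lay close to each other, were below every other group mean. At chr10:127612686-127613088 GMT had 8.03, 14.2 and 9.91 CPM, the single-factor libraries 17.7 to 107 CPM and the control 31.2, 27.4 and 31.2 CPM. At chr12:32339627-32339864 GMT had 60.2, 32.2 and 58.5 CPM, whereas all other groups averaged 100.1 to 123.5 CPM (log2 fold change against the single factors -1.27 ± 0.24, edgeR adjusted p = 0.000296). The call against the single factors was lost for 3 of the 5 named falls in at least 1 alternative, those at chr10:127612686-127613088, chr5:122775074-122775274 and chr17:24342826-24343026. Against the control the last of these was called at an adjusted p of 0.0446 by edgeR and lost in 13 of 20 alternatives.

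Of the 10 lowest-ranked falls against the control, 2 were called lower in GMT than the average of the single factors too, as were 2.59% of all regions tested. These were chr9:34087253-34087453 (log2 fold change -1.71 ± 0.59, edgeR adjusted p = 0.0382) and chr19:41267564-41267832 (log2 fold change -1.61 ± 0.59, edgeR adjusted p = 0.0491). Of the 10 highest-ranked rises, 9 were called higher in GMT than the average of the single factors, as were 17.4% of all regions tested. The same GMT libraries ranked these 20 regions, so nothing is read from these counts. The rise not called was chr8:36495421-36495624 (log2 fold change 1.19 ± 0.45, edgeR adjusted p = 0.0596), where T was above GMT. T also had the higher mean at chr18:10909009-10909251, which was called (125 CPM in T, 37.8 CPM in GMT). At chr5:124588947-124589509, called as well, T and GMT had about the same mean (232 and 233 CPM).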

How the data were processed

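The authors deposited a table of raw counts per region and library. The submitters' processing notes name Bowtie2, featureCounts and Picard, give no version of any, and name mm9 as the genome build. The definition of the regions, the filters on reads and the counting unit (read or fragment) are not given in the sources used here. Libraries were made from unsorted cells at day 2, per the labels.

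The software was edgeR 4.0.16, with limma 3.58.1 for loess and DESeq2 1.42.0 as an alternative, under R 4.3.3. A region was tested if it passed filterByExpr (minimum count 10, minimum total 15), as 66.5% did. All 8 groups were fitted together after TMM scaling, with 16 residual degrees of freedom, by edgeR's quasi-likelihood test, and p-values were adjusted by Benjamini-Hochberg over all regions tested. Standard errors were taken as the absolute log2 fold change over the root of F. An exact permutation test of 3 against 3 libraries cannot go below 0.1, so single regions have the p of this fit. The test was tried on simulated data.

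Named regions are the 10 highest and 10 lowest log2 fold changes (groups without overlap, mean level not under the median), the 5 largest rises and falls in mean CPM, the 3 runs with most opened and most closed regions, the 5 highest and 5 lowest of those that differ in both comparisons, and 3 steady regions. The members, lists and rules were chosen with earlier results of these data known. Alternatives were other scalings, filters, tools, thresholds and libraries. The counts by width, level, neighbours, low control counts and left-out library under alternatives were added after the data were seen, except for the wider neighbour gap (50000 bases) and the count of 0, which were planned. The annotation at hand is of another build (GRCm38), so that gene lists, sequences and motifs, though planned, were not used.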

Additional observations from a re-analysis of the deposited data

How the results depend on the processing

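In GMT versus the control (4718 higher, 2151 lower), the number higher was 3102 with loess offsets, 2146 with a stricter filter (9474 regions tested) and 3009 at an adjusted p below 0.01. The number lower was 914 with the stricter filter, 836 at an adjusted p below 0.01 and 968 with a minimum fold of 1.5. With libraries left out the numbers ran from 1096 to 5118 higher and from 175 to 3245 lower, lowest without replicate 3 of all groups. They were 1844 and 556 with replicate 2 left out everywhere. Leaving out 1 GMT or control library gave 2957 (control replicate 3) to 4921 (GMT replicate 1) higher and 889 (GMT replicate 3) to 3245 (GMT replicate 1) lower. In GMT versus the average of G, M and T (3567 higher, 530 lower), the number higher was 1716 with loess offsets, 1935 with the stricter filter, 2034 at an adjusted p below 0.01 and 1898 with a minimum fold of 1.5. The number lower was 872 with RLE size factors, 885 with DESeq2, 320 with only the groups compared, 71 at an adjusted p below 0.01 and 13 with a minimum fold of 1.5. With libraries left out they ran from 709 to 4125 higher and from 22 to 1006 lower. Without replicate 2 of all groups there were 1018 higher and 22 lower, and without replicate 1 of all groups 844 lower. Leaving out 1 GMT library gave 1291 (replicate 2) to 3696 (replicate 1) higher and 89 (replicate 2) to 784 (replicate 1) lower. No region called in both a given alternative and the first analysis changed its direction. The replicate number as a block gave 4760 higher and 2142 lower against the control and 3573 and 463 against the single factors. Whether the numbers pair the samples was not settled. Same-numbered GMT and control libraries had deviations from their group means correlated at -0.01, 0.02 and -0.19. Of 24 libraries, 11 correlated best with their own number among the 3 numbers in the other groups. Deviations from a mean of 3 libraries depend on each other, so these values cannot decide it. The 77 named regions include the steady ones and some in the runs that had no call to lose, and 30 lost their call in at least 1 alternative. Among the steady regions, chr8:4166019-4166413 (log2 fold change 0.56, edgeR adjusted p = 0.0129) and chr14:120876635-120877050 (0.46, 0.0248) turned from just below 0 to higher in GMT with loess offsets, and the cause was not tested. The opened regions with at most 3 control counts numbered 111, against 287 with no filter, 20 with only the groups compared and 379 to 501 with a control library left out, which by construction lowers the count that a region can have. Of regions up to 250 bases, 1230 were lower, against 1853, 610 and 513 when GMT replicate 1, 2 or 3 was left out, 731 without control replicate 3, 449 with the stricter filter and 102 without replicate 3 of all groups. With neighbours up to 50000 bases apart, 1227 called pairs (73.9%) had the same direction, in place of 672 (82.8%). GMT replicate 1, at 241394 counts, limits what its low levels can show, since 3 counts there are worth 12.0 CPM. The planned change of motif window was not run, since no motif was searched.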

Other observations

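The closed list was also compared within the other factor groups by total count. In 5 of the 7 factor groups the library with the lowest total count had the highest median level over the regions closed in GMT, with GMT at 32.1 CPM, GM at 42.2 CPM, MT at 35.3 CPM, G at 41.55 CPM and M at 35.5 CPM. The exceptions were GT, at 32.2 CPM in its lowest-total library, and T, at 17.6 CPM. In the control, the lowest-total library had the lowest of the 3 medians, 62.4 CPM. Over the regions opened in GMT, the lowest-total library had the lowest median of its group in 3 of the 7 factor groups. The part of depth in these levels was not tested.

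Among the 7 factor groups, GMT had the highest mean at 34.3% of the opened regions and T at 24.5%, beside 11.7% and 22.2% of all regions tested. GMT had the lowest mean at 43.8% of the closed regions and T at 27.3%, beside 15.6% and 23.5% of all regions tested. GMT libraries chose both lists, so that its shares are a description.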
